A study of Mus musculus with 12 samples.

Results

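The genes described here are 8 regulators and signals of the primitive streak and early mesoderm, namely Mixl1, Eomes, Evx1, Fgf8, Gsc, Mesp1, Tbx6 and Lhx1. They were chosen by name. Every probe set annotated to a single one of these symbols was taken, which gave 10 of 45037 probe sets (8 of 18193 named genes), since Eomes and Lhx1 had 2 each. The cells were mouse embryonic stem cells grown without feeders on gelatin in serum medium with Lif, and RNA was hybridised to Affymetrix arrays. The 4 groups were wild type (Tcf3+/+) and knockout (Tcf3-/-) cells, each in control medium and in the same medium with 50 ng/ml recombinant Wnt3a for 24 h before RNA isolation. Each group held 3 arrays, 12 in all, numbered as replicates. Whether separate cultures were used is not stated, and the p-values cover only the variation among those arrays, possibly technical. The labels name the genotype but no cell line or clone, and do not say which exons the knockout lacks.

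The primitive streak is the site in the gastrulating embryo where epiblast cells leave the epithelium and become mesoderm and definitive endoderm. Wnt, Nodal, Bmp and Fgf signals induce it, and T-box and homeodomain factors then allocate cells along it. The gene called Tcf3 by the labels is now Tcf7l1, a DNA-binding protein of the Tcf/Lef family that mostly represses Wnt target genes until beta-catenin displaces or relieves it. Wnt3a is a secreted ligand that stabilises beta-catenin, and stem cells exposed to it can switch on streak genes under some culture conditions.

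The promoters of 2 members are shown as the 250 bases before the annotated start (RefSeq, build GRCm38.p6, each on the strand of its gene). Eomes is shown because it had the only called increases among the members, and Mesp1 because it held matches to a Tcf/Lef motif and was flat across the groups. Capitals mark matches to CTTTGAT or CTTTGAA, searched on both strands.
Eomes, chr9:118477939-118478188, plus strand: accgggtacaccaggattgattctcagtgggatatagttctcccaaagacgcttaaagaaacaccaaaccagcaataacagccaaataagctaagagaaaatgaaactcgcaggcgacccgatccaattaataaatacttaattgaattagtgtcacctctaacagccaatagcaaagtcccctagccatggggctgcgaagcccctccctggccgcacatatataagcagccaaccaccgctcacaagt
Mesp1, chr7:79793591-79793840, minus strand: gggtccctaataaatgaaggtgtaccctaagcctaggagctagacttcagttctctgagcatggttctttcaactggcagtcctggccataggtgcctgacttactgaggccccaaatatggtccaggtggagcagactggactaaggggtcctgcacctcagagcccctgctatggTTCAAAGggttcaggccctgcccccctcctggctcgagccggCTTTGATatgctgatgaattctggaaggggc
Mesp1 had 2 matches, which began 73 and 31 bases before the start. The windows of Eomes, Evx1, Gsc, Tbx6 and Lhx1 had none of these letters, and 7.48% of 32851 promoter windows of this length held at least 1 match. A match describes the letters in the window and is not a bound site.

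All levels are log2 of the deposited intensity. The files used here carry no detection calls, so the 40th percentile of the table without array controls, 5.56 on the log2 scale, served as a floor near background. A probe set was tested when at least 3 arrays lay above it. By this rule 6 of the 10 probe sets were tested, those of Mixl1, Eomes (both), Evx1, Fgf8 and Mesp1. The probe sets of Gsc, Tbx6 and Lhx1 lay below the floor on all 12 arrays. Mixl1, Eomes and Mesp1 lay above the floor on all 12 arrays, Evx1 on 10 and Fgf8 on 5. Where a group mean of a probe set lies below the floor, differences against that group are given no size.

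**Figure D1:**
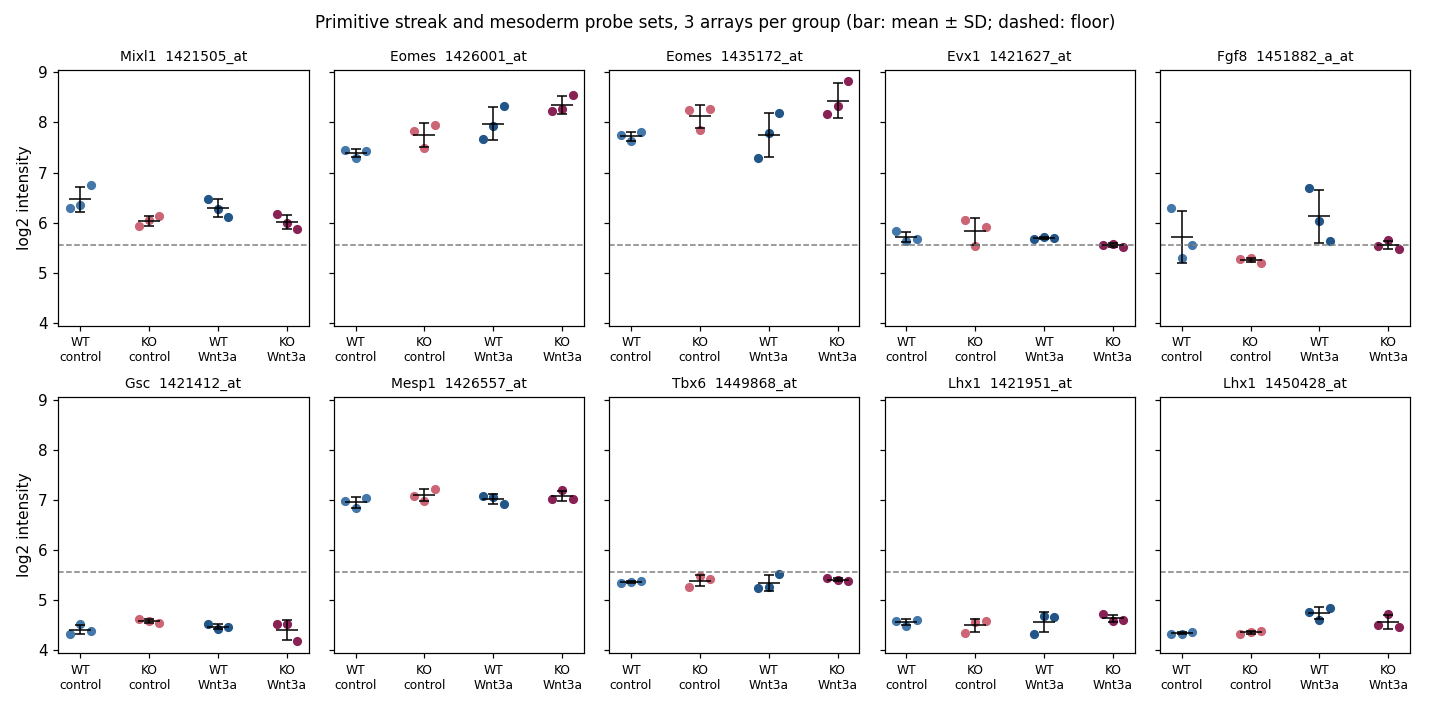
Log2 intensity of the 10 probe sets on each array (points, 3 per group), with the group mean ± SD as a bar and the floor of 5.56 as a dashed line. Gsc, Tbx6 and both Lhx1 probe sets stay below the floor in all groups, Eomes and Mesp1 stay above it, and Eomes has its highest values on knockout arrays with Wnt3a.

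Several properties of the arrays bear on all members. Tcf7l1 was lower in knockout than in wild-type cells, with 9.47 ± 0.11 against 10.85 ± 0.07 (SD, n = 3) in control medium for its brighter probe set and 9.10 ± 0.18 against 10.37 ± 0.15 with Wnt3a. All 10 embryonic stem cell markers of a fixed list were above the floor on at least 1 array, among them Pou5f1, Sox2 and Nanog. Spike-in controls differed between the media. The bacterial dap transcript, spiked into RNA before labelling, averaged 4.25 ± 0.06 (SD, n = 6) on control arrays and 10.95 ± 0.09 on Wnt3a arrays. Medium and preparation thus cannot be told apart, and this holds for each Wnt3a effect below. The 3' minus 5' difference of actin probe sets was 0.21 in untreated wild-type and 0.35 in untreated knockout cells, against 0.26 and 0.38 after Wnt3a. In bulk RNA, fewer cells of a type and less RNA per cell cannot be told apart.

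The number of probe sets called among the members was 1 of 6 in each of the pairwise comparisons. A call is an adjusted p under 0.05 by limma with Benjamini-Hochberg adjustment over 28483 probe sets. Over all probe sets tested, 36.2% were called for the knockout effect in control medium, 42.5% for the Wnt3a effect in wild type, 30.9% for the Wnt3a effect in knockout and 24% for the knockout effect in Wnt3a medium. Split by direction, 18.2% of all probe sets were called lower for the knockout effect in control medium, 21.7% and 16% for the Wnt3a effects in wild type and knockout, and 13.2% for the knockout effect in Wnt3a medium. The shares called higher were 18%, 20.8%, 14.9% and 10.8% in the same order. With 6 probe sets tested, 1 call is too near these shares to set the members apart. The interaction, the difference between the Wnt3a effects of the genotypes (knockout minus wild type), was called for 3.58% of all probe sets and for 0 of 6 members by limma, with 0 members at an unadjusted p under 0.05.

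Eomes, a T-box factor needed for streak formation, endoderm specification and the trophoblast lineage, was called in 3 of the 4 pairwise comparisons, but its 2 probe sets did not report the same change. On probe set 1426001_at the wild-type arrays read 7.44, 7.30 and 7.42 in control medium and 7.67, 7.93 and 8.32 with Wnt3a. The knockout arrays read 7.83, 7.49 and 7.95 in control medium and 8.23, 8.26 and 8.55 with Wnt3a. In both genotypes every Wnt3a array lay above every control array. The share of all probe sets without overlap was not counted, while 42.5% and 30.9% were called for these effects. The Wnt3a effect was 0.59 ± 0.16 (SE; 1.50-fold, limma adjusted p = 0.0106) in wild type and 0.59 ± 0.16 (1.50-fold, adjusted p = 0.0151) in knockout cells. The dap spike-in moved with the same arrays, and its part in the result was not tested. The rise in knockout cells was not called without knockout control array 2 (0.45, adjusted p = 0.0607) or knockout Wnt3a array 3 (0.49, adjusted p = 0.0581). Knockout control array 2, the lowest of its group for Eomes, also had a summed intensity of 10 endoderm markers of 2624, against 831 and 1302 on the other knockout control arrays.

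On Eomes probe set 1435172_at the wild-type arrays read 7.75, 7.63 and 7.80 in control medium and 7.29, 7.78 and 8.18 with Wnt3a, which overlap. The knockout arrays read 8.24, 7.85 and 8.27 in control medium and 8.16, 8.32 and 8.82 with Wnt3a. Here Wnt3a changed Eomes by 0.02 ± 0.21 in wild type (limma adjusted p = 0.938, 95% interval -0.44 to 0.48) and by 0.31 ± 0.21 in knockout cells (adjusted p = 0.293, interval -0.15 to 0.77). This probe set was instead called higher in knockout than in wild-type cells in Wnt3a medium, by 0.68 ± 0.21 (1.61-fold, adjusted p = 0.0347), although 1 wild-type array (8.18) lay above the lowest knockout array (8.16). That call was lost without wild-type Wnt3a array 1 (0.45, adjusted p = 0.129) or 2 (0.70, 0.0747), and likewise without knockout Wnt3a array 2 (0.74, 0.0597) or 3 (0.49, 0.125). Fitting only the arrays compared also ended it (0.68, 0.106).

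In control medium both Eomes probe sets were higher on every knockout array than on every wild-type array. The share of all probe sets without overlap was not counted, and 36.2% were called in this comparison. The Eomes differences, 0.37 ± 0.16 (limma adjusted p = 0.0894) and 0.40 ± 0.21 (adjusted p = 0.173), did not pass. With only the arrays compared in the fit they passed (adjusted p = 0.035 and 0.0253), as did the first without knockout control array 2 (0.50, 0.0345) or wild-type Wnt3a array 3 (0.37, 0.0403). In Wnt3a medium the first probe set differed by 0.37 between genotypes (adjusted p = 0.111), and by 0.54 (0.0182) without wild-type Wnt3a array 3. Neither probe set had a called interaction (0.00, interval -0.49 to 0.49, and 0.29, interval -0.36 to 0.94). The order of group means was wild type in control medium, knockout in control medium, wild type with Wnt3a and knockout with Wnt3a on the first probe set. On the second the wild-type groups were lowest and did not differ beyond their spread.

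The Eomes probe sets disagreed on the Wnt3a arrays. The second minus the first was 0.35 ± 0.04 (SD, n = 6) on control arrays, with a range of 0.31 to 0.42, and -0.07 ± 0.22 on Wnt3a arrays. The Wnt3a arrays also parted by genotype, with -0.38, -0.15 and -0.14 in wild type and -0.07, 0.06 and 0.27 in knockout cells, the last next to the control range. This split by genotype was seen in the values and was not tested. Averaged over both probe sets, Eomes changed with Wnt3a by 0.30 ± 0.18 in wild type (limma adjusted p = 0.2) and 0.45 ± 0.18 in knockout cells (adjusted p = 0.0823). The averaged knockout effect was 0.38 in control medium (adjusted p = 0.127) and 0.53 with Wnt3a (adjusted p = 0.0549), so that no call was left.

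**Figure D2:**
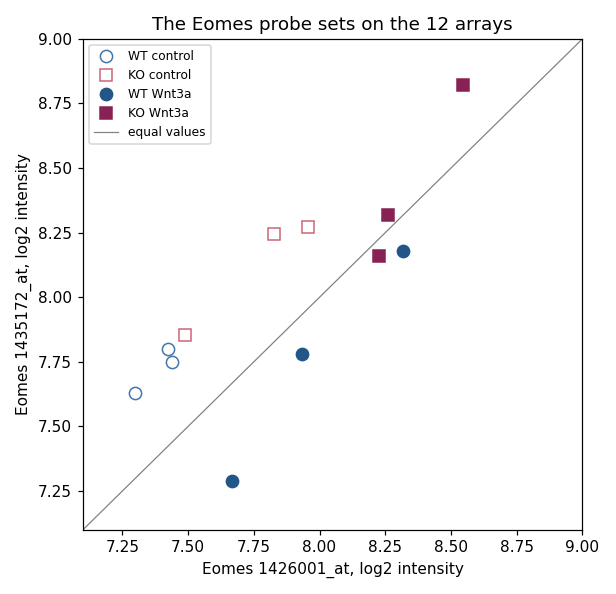
Log2 intensity of Eomes probe set 1435172_at against 1426001_at on each of the 12 arrays, with open symbols for control medium, filled symbols for Wnt3a, circles for wild type and squares for knockout. Control arrays lie 0.31 to 0.42 above the line of equal values, while Wnt3a arrays lie from 0.38 below to 0.27 above it.

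Eomes is also a trophoblast gene. Of 8 tested trophectoderm markers, 5 were lower and 0 higher by limma in knockout cells in control medium, and 6 lower and 0 higher with Wnt3a. The shares called lower over all probe sets were 18.2% and 13.2%. With 1 probe set per gene, as for the markers, 3081 and 2035 of 13811 genes were called lower. Ascl2, Tfap2c and Hand1 were not called in control medium. The summed intensity of 10 trophectoderm markers was 22218 to 35508 on wild-type and 3029 to 3525 on knockout control arrays, and 17936 to 21575 and 2501 to 2921 with Wnt3a. The keratin genes Krt8 and Krt18, at 13.66 and 13.55 in untreated wild type and 9.22 and 8.68 in knockout cells, were the brightest of the list. The difference between the sums in control medium rests mainly on these keratin genes. The trophoblast markers Elf5 and Tpbpa lay below the floor on all 12 arrays. Of 10 endoderm markers, Cxcr4 and Afp lay below the floor on all arrays, and the summed intensity was 931 to 1131 in wild type and 831 to 2624 in untreated knockout cells, and 1102 to 1416 and 1455 to 1665 with Wnt3a. The part of trophoblast or endoderm cells in the Eomes values was not tested.

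Mixl1, a paired-type homeodomain factor of the streak that acts in mesendoderm, was lower in knockout than in wild-type cells in control medium. Wild-type arrays read 6.29, 6.36 and 6.74 and knockout arrays 5.94, 6.04 and 6.13, without overlap. How many of all probe sets lacked overlap was not counted. The Mixl1 difference was -0.42 ± 0.13 (SE; 1.34-fold, limma adjusted p = 0.0201), where 36.2% of all probe sets were called. Leaving out wild-type control array 3 (-0.29, adjusted p = 0.0931) or knockout control array 1 (-0.37, 0.0746) ended the call, and the probe set did not pass the stricter filter. With Wnt3a the wild-type arrays read 6.48, 6.27 and 6.12 and the knockout arrays 6.16, 6.0 and 5.87, which overlap. There the difference was -0.28 ± 0.13 (adjusted p = 0.142, 95% interval -0.55 to 0.00). Mixl1 did not rise with Wnt3a, with changes of -0.18 ± 0.13 in wild type (adjusted p = 0.289, interval -0.45 to 0.10) and -0.03 ± 0.13 in knockout cells (adjusted p = 0.9, interval -0.30 to 0.25). The actin 3' minus 5' difference parted the same genotypes (0.21 against 0.35), and its part in the result was not tested.

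Evx1, a homeodomain factor of the posterior streak, lay close to the floor, between 5.51 and 6.04 on the 12 arrays. Its wild-type means were 5.71 ± 0.10 (SD, n = 3) in control medium and 5.70 ± 0.02 with Wnt3a. In knockout cells the control arrays read 6.04, 5.53 and 5.92 and the Wnt3a arrays 5.56, 5.58 and 5.51, whose mean of 5.55 lies below the floor. The Wnt3a effect in knockout cells did not pass (limma adjusted p = 0.0688). Knockout control array 2 was again the low one of its group. Without it the Wnt3a effect in knockout cells passed, as a fall to below the floor (adjusted p = 0.00271), and the knockout effect in control medium was 0.27 (adjusted p = 0.0202), against 0.12 (adjusted p = 0.455) with it.

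Fgf8, the ligand that drives cells away from the streak during gastrulation, varied most between wild-type arrays. They read 6.29, 5.29 and 5.55 in control medium and 6.70, 6.03 and 5.64 with Wnt3a. Knockout arrays read 5.27, 5.29 and 5.20 in control medium, all below the floor, and 5.53, 5.65 and 5.48 with Wnt3a. The Wnt3a effect was 0.42 ± 0.25 (limma adjusted p = 0.207) in wild type, and passed (adjusted p = 0.0313) without wild-type control array 1, the high one of its group and the only one above the floor. Both knockout means, 5.26 and 5.56, lie below the floor (5.5552 against 5.5597 for the latter), so Fgf8 has no measured Wnt3a effect in knockout cells. It entered the test mainly through wild-type arrays, 4 of the 5 above the floor. The knockout effect was not called in either medium (adjusted p = 0.199 and 0.128), and with Wnt3a it was called lower without wild-type Wnt3a array 3 (0.0365).

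Mesp1, the basic helix-loop-helix factor that marks nascent mesoderm and heart precursors, was above the floor on all arrays and nearly level. Its group means were 6.95 ± 0.10, 7.09 ± 0.12, 7.01 ± 0.09 and 7.07 ± 0.10 (SD, n = 3) in wild type and knockout control medium and wild type and knockout with Wnt3a. The largest of its pairwise differences was the knockout effect in control medium, 0.14 ± 0.09 (limma adjusted p = 0.246, 95% interval -0.05 to 0.33). The Wnt3a effects were 0.07 (interval -0.12 to 0.26) in wild type and -0.01 (interval -0.20 to 0.17) in knockout cells. These intervals leave out a change of 0.5 on the log2 scale in either direction.

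**Figure D3:**
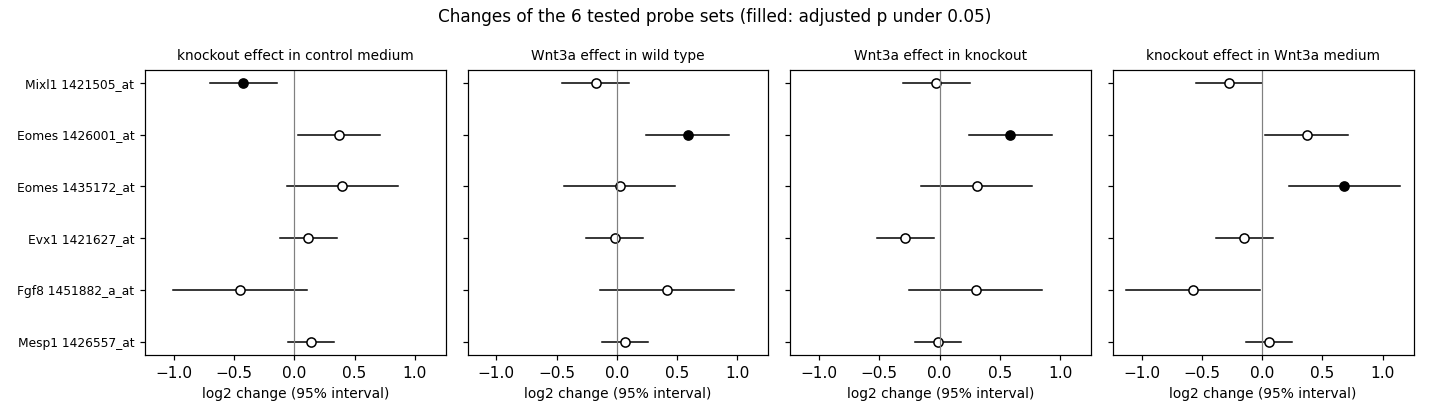
Log2 change of each of the 6 tested probe sets in the 4 pairwise comparisons, with its 95% interval from limma and filled points for an adjusted p under 0.05. The filled points are Mixl1 for the knockout effect in control medium (-0.42), Eomes 1426001_at for both Wnt3a effects (0.59 each) and Eomes 1435172_at for the knockout effect in Wnt3a medium (0.68). Points of Fgf8 that involve knockout groups, and of Evx1 that involve knockout cells with Wnt3a, rest on means below the floor and show no measured size.

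The members below the floor are given as values, with no fold. Gsc, the homeodomain factor of the organizer, lay between 4.17 and 4.62 on the 12 arrays. Tbx6, a T-box factor that directs cells to paraxial mesoderm, lay between 5.23 and 5.53. Lhx1, a LIM homeodomain factor of the anterior streak and node, lay between 4.33 and 4.71 on probe set 1421951_at and between 4.33 and 4.84 on 1450428_at. The second Lhx1 probe set read 4.33, 4.33 and 4.37 on wild-type control arrays and 4.76, 4.60 and 4.84 on wild-type Wnt3a arrays. With no filter in the fit, that difference passed (limma adjusted p = 0.00284). All its values lay below the floor, so it has no measured size. The first Lhx1 probe set did not pass in the same comparison (adjusted p = 0.986).

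Other genes of the same developmental steps were read from 6 lists. These held 91 genes and were written with earlier results of these data known. Of the 91 symbols, 87 were matched to a probe set and 72 passed the filter, each represented by its brightest probe set. The symbol T of the posterior streak list was not matched, which does not show that the arrays lack the gene. Of the 72 genes, 14 rose and 18 fell with Wnt3a in wild type (median -0.15, against -0.02 over all probe sets), and 8 rose and 14 fell in knockout cells (median -0.05 against -0.01). That is 44.4% called in wild type, against 42.5% of all probe sets, and 30.6% against 30.9% in knockout cells, so the lists as a whole were near the background. In knockout cells 9 were higher and 23 lower in control medium (median -0.09 against 0.03), and 7 higher and 14 lower with Wnt3a (median -0.09 against 0.00). These shares were 44.4% against 36.2% and 29.2% against 24%. The background shares here and below count probe sets, while the lists count each gene once. With 1 probe set per gene, 13811 genes were tested. Of these 5824 were called for the knockout effect in control medium (3081 lower) and 3863 in Wnt3a medium (2035 lower). For the Wnt3a effects 5733 were called in wild type (3118 lower) and 3872 in knockout cells (2032 lower). The 44.4% and 29.2% are thus not read as an excess. With each array centred on its median, the share of rises among all called probe sets went from 49.0% to 63.2% for the Wnt3a effect in wild type and from 48.1% to 64.1% in knockout cells.

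The posterior streak and tail bud regulators were the list whose called members rose with Wnt3a. Of 10 tested, 6 rose and 0 fell by limma in wild type (median 0.60), and 5 rose and 0 fell in knockout cells (median 0.37), where 20.8% and 14.9% of all probe sets were called higher. Cdx1, a caudal-type homeodomain factor of posterior tissue, averaged 6.04 ± 0.57 (SD, n = 3) in wild type in control medium and 8.93 ± 0.35 with Wnt3a, a 7.38-fold rise (limma adjusted p = 3.75e-06). In knockout cells it went from 7.39 ± 0.13 to 9.36 ± 0.14, a 3.92-fold rise (adjusted p = 0.000141). Nkx1-2, a homeodomain gene of the caudal epiblast, had group means below the floor in control medium and rose at least 4.41-fold in wild type and at least 6.47-fold in knockout cells. Its 3 probe sets were called in 2 cases in wild type and in 3 in knockout cells. Sp5, a zinc finger factor directly induced by Wnt and named here after its values were seen, rose by 1.86 on the log2 scale in wild type and by 1.58 in knockout cells (adjusted p = 0.000152 and 0.000913). Cdx2 had a change of -0.24 with Wnt3a in wild type (adjusted p = 0.276), and was 2.02-fold lower in knockout than in wild-type cells in control medium. Cdx1 went the other way there, 2.53-fold higher in knockout cells (adjusted p = 0.000795). In knockout cells 2 of the 10 were higher and 3 lower in control medium, beside 18% and 18.2% of all probe sets. With Wnt3a 2 were higher and 2 lower, beside 10.8% and 13.2%. The dap spike-in differed between control and Wnt3a medium, and its part in the Wnt3a effects was not tested.

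**Figure D4:**
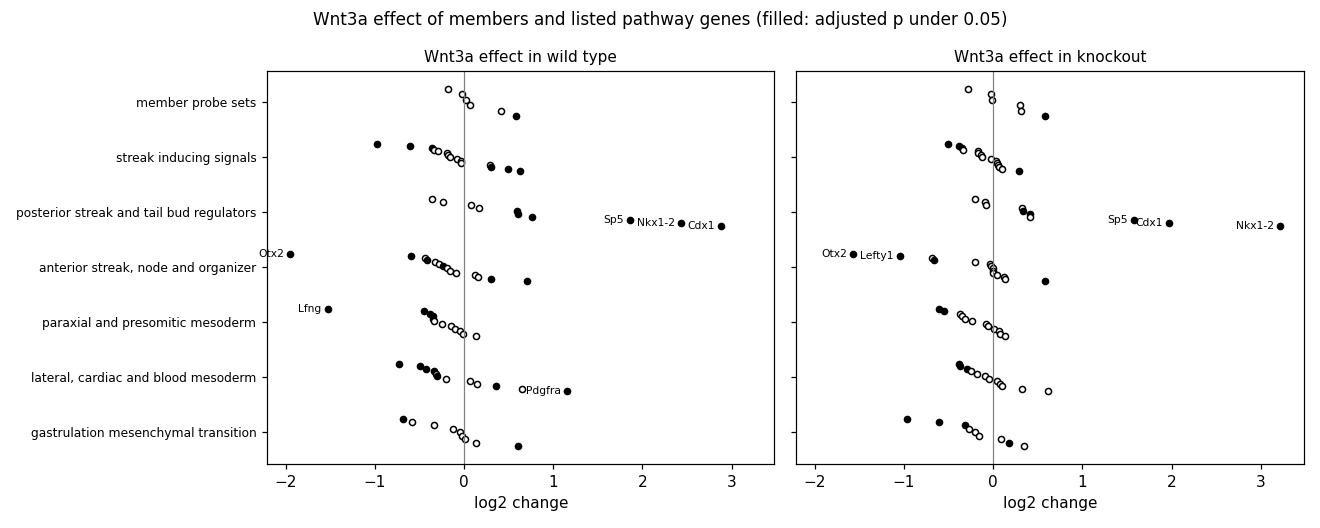
Log2 change with Wnt3a in wild-type (left) and knockout cells (right) for the 6 tested member probe sets and for the tested genes of each list, one point per probe set or gene and filled where the adjusted p was under 0.05. Cdx1, Nkx1-2 and Sp5 lie between 1.58 and 3.22, while the called member probe set, Eomes 1426001_at, lies at 0.59 in each. The points of Nkx1-2, and of Fgf8 and Evx1 in knockout cells, rest on a mean below the floor and show no measured size.

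Signals that induce the streak were mixed. Of 15 tested, 3 rose and 3 fell with Wnt3a in wild type, and 1 rose and 3 fell in knockout cells. Of all probe sets 20.8% rose and 21.7% fell in wild type and 14.9% and 16% in knockout cells, so these counts are near the background. The rise in knockout cells, that of the Nodal co-receptor gene Tdgf1, was not called without knockout control array 3 (adjusted p = 0.0724) or knockout Wnt3a array 3 (0.0724). Foxh1, the Smad partner that relays Nodal signals, fell by 0.97 in wild type and by 0.50 in knockout cells (limma adjusted p = 5.7e-05 and 0.00687). Between genotypes, 4 were higher and 6 lower in untreated knockout cells, where 18% of all probe sets were called higher and 18.2% lower. Fgf4 was 1.71-fold higher, and Furin, a protease that matures Nodal, was 2.29-fold lower (adjusted p = 0.000824 and 4.39e-05). Pcsk6, of the same list, was 1.71-fold higher (adjusted p = 4.86e-05). Nodal itself was 1.20-fold higher (adjusted p = 0.00998). With Wnt3a Nodal fell 1.28-fold in wild type and 1.28-fold in knockout cells (adjusted p = 0.0015 and 0.00291). In Wnt3a medium 4 of the 15 were higher and 5 lower in knockout than in wild-type cells, beside 10.8% and 13.2% of all probe sets.

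Genes of the anterior streak and organizer were lower where called between genotypes. In knockout cells 5 of 14 tested were lower and 0 higher by limma in control medium, and 3 lower and 0 higher with Wnt3a, where 18.2% and 13.2% of all probe sets were called lower. Lefty1, a secreted Nodal inhibitor, was lower by factors of 2.32 without and 3.81 with Wnt3a (limma adjusted p = 0.00115 and 0.000117). Ssbp3, a cofactor of Lhx1 complexes, was 2.82-fold and 2.15-fold lower (adjusted p = 8.75e-07 and 2.81e-05). With Wnt3a 2 of the 14 rose and 4 fell in wild type, and 1 rose and 3 fell in knockout cells. Of all probe sets 20.8% rose and 21.7% fell in wild type and 14.9% and 16% in knockout cells. Otx2, a homeodomain factor of the anterior epiblast, fell 3.86-fold with Wnt3a in wild type and 2.97-fold in knockout cells (adjusted p = 0.000552 and 0.00372). Fst rose in both genotypes, by 0.70 and 0.58 (adjusted p = 0.0126 and 0.0406), and Ldb1 rose by 0.30 in wild type (0.0137). The Fst rise in knockout cells was lost in 6 of 12 fits without an array. Lhx1 and Gsc, which belong to the same step, lay below the floor throughout.

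Paraxial and presomitic genes, the group to which Tbx6 belongs, had called falls and no called rise. With Wnt3a 5 of 12 fell in wild type and 2 in knockout cells, and 3 were lower in untreated knockout cells. Of all probe sets 21.7%, 16% and 18.2% were called lower in these comparisons, so the counts in knockout cells are near the background. The fall of the Notch ligand gene Dll3 in wild type was lost with median centring (adjusted p = 0.0803) and in 8 of 12 fits without an array (0.0118 to 0.179). Lfng, a modifier of Notch receptors, fell 2.88-fold with Wnt3a in wild type and was 2.32-fold lower in untreated knockout cells (limma adjusted p = 1.53e-05 and 6.04e-05). Of 12 tested genes of lateral, cardiac and blood mesoderm, 2 rose and 5 fell with Wnt3a in wild type. In knockout cells 0 rose and 3 fell. Of all probe sets 20.8% and 14.9% were called higher, and 21.7% and 16% lower. Lmo2, a blood mesoderm cofactor, fell 1.66-fold in wild type and Etv2, an Ets factor of endothelial and blood precursors, fell 1.41-fold (adjusted p = 0.000302 and 0.00757). The rises in wild type were those of Pdgfra (2.22-fold, adjusted p = 0.0175) and Foxf1 (1.28-fold, 0.00378). The Pdgfra call was lost without wild-type control array 3 (0.051), and another Foxf1 probe set was called in the opposite direction.

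Among 9 genes of the mesenchymal transition at the streak, 2 were higher and 4 lower in untreated knockout cells. Over all probe sets 18% were called higher and 18.2% lower there. Zeb1, a repressor of E-cadherin, was 1.94-fold higher (limma adjusted p = 5.52e-05). Twist1 was at least 1.61-fold lower, since its knockout mean lay below the floor. The E-cadherin gene Cdh1 was 1.72-fold lower in knockout cells with Wnt3a (adjusted p = 0.000146). The N-cadherin gene Cdh2 was lower as well, 1.85-fold in control medium (adjusted p = 0.0263) and 2.40-fold with Wnt3a (adjusted p = 0.00665). Its call in control medium was lost in 5 of 12 fits without an array. With Wnt3a 1 of the 9 rose and 1 fell in wild type, and 1 rose and 3 fell in knockout cells. Of all probe sets 20.8% rose and 21.7% fell in wild type and 14.9% and 16% in knockout cells. The rise in knockout cells was that of the GTPase gene Rac1 (0.18, adjusted p = 0.0448). It was lost in 11 of 12 fits without an array (0.0295 to 0.154), and with no filter (0.0654), repeated quantile normalization (0.222), only the arrays compared (0.104) and the replicate block (0.0679).

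Likeness to other genes was measured as the root mean square difference between mean-centred log2 profiles over the 12 arrays, among 13034 genes represented by their brightest probe set. It was computed for the members whose brightest probe set was called in a pairwise comparison, Mixl1 and Eomes. For Mixl1, whose own profile had a root mean square of 0.23, the nearest genes were Hmx1 (0.08), Rab13 (0.10) and Krtcap3 (0.11). For Eomes (1435172_at, 0.39) they were Mtus2 (0.15), Map4k1 (0.16) and Tcf4 (0.18). These distances describe profiles over arrays that share groups and preparation.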

How the data were processed

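The authors deposited probe set intensities on a linear scale, made with RMA per the submitters' processing notes (version and settings: not given in the sources used here). Log2 was taken with no offset. Gene symbols came from GEO's platform annotation. Of 45101, 64 were array controls, 34945 had 1 symbol, 932 several and 9160 none listed. Members and lists were chosen with earlier results of these data known. All 28483 probe sets with at least 3 arrays above the 40th percentile entered a fit in limma 3.58.1 under R 4.3.3 (4 group means, 12 arrays, eBayes with a constant prior), with Benjamini-Hochberg adjustment and a threshold of 0.05. Arrays correlated within groups between 0.995 and 0.9981, and none held identical values. Precision is limited by having 3 arrays in each group. The fit was tested on simulated data with independent noise, in which 200 of 28483 probe sets were changed by 1 on the log2 scale. It recovered 96% for the knockout effect in control medium and 94.5% for that in Wnt3a medium. For the Wnt3a effects in wild type and knockout it recovered 92% and 95%, and for the interaction 88%. False calls numbered 3 to 13. Every called member change was smaller than 1, so these rates do not describe recovery at the members' sizes. Named genes were all member probe sets, from each list and pairwise comparison the 2 largest called rises and falls (part of them printed), and for called members the 3 nearest profiles. A fold against a group mean below the floor is given as at least N-fold against the floor. Promoter windows for Mixl1 and Fgf8 and protein sequences were not used here, and listed symbols that were not matched are not analysed here.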

Additional observations from a re-analysis of the deposited data

Results flagged for a closer look

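No member had a called difference between the Wnt3a effects of the genotypes. For Gsc the Wnt3a arrays lay on opposite sides of the control means in the genotypes, with a fitted difference of -0.24 (limma adjusted p = 0.41 without the filter). All its values lay below the floor, so neither the size nor the direction is a measured one. Among the listed genes 3 had a called interaction. That of Nkx1-2 was 0.79 (limma adjusted p = 0.0395). Both its control means lay below the floor, so the rises are bounds (at least 4.41-fold in wild type and 6.47-fold in knockout cells) and the 0.79 is not a measured size. It was lost with the replicate number as a block (adjusted p = 0.0696) and in 9 of 12 fits that left out an array, over which adjusted p ran from 0.0281 to 0.0969. That of Lfng was 0.97 (adjusted p = 0.0331, effects of -1.53 and -0.55), lost in 9 of 12 such fits (0.00707 to 0.0913). That of Fgf17 was -0.68 (adjusted p = 0.0284, effects of 0.59 and -0.09), lost in 7 of 12 (0.015 to 0.0827). In the array controls the dap spike-in averaged 10.95 on Wnt3a arrays against 4.25 on control arrays.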

How the results depend on the processing

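Over the alternatives, 591 of 614 refitted values of the tested members stayed on the same side of the threshold, 12 lost and 11 gained a call, and none that was called reversed. Most of these values belong to member comparisons that were not called in the main fit. Alternatives that did not test a probe set are not counted for it. Of 1495 refitted values of named list genes 1388 stayed on their side and 107 lost a call, among Acvr2b, Cdh2, Dll3, Fgf17, Fst, Lfng, Lmo2, Nkx1-2, Pcsk6, Pdgfra, Rac1, Tdgf1, Vim, Wnt5b and Wnt8a. The members called for the knockout effect in control medium numbered 1, 0 with the stricter filter (which tested 3 members), 3 with only the arrays compared, and 0 to 3 when an array was left out. For the Wnt3a effect in wild type they numbered 1, 0 with 1 probe set per gene (which leaves out the dimmer Eomes probe set) and 1 to 2 with an array left out. For the Wnt3a effect in knockout they numbered 1, 0 with 1 probe set per gene, 2 with only the arrays compared and 0 to 1 with an array left out. For the knockout effect in Wnt3a medium they numbered 1, 0 with only the arrays compared and 0 to 3 with an array left out. Over all probe sets, 1 probe set per gene tests fewer features and called 5824 for the knockout effect in control medium, 5733 and 3872 for the Wnt3a effects in wild type and knockout, 3863 for the knockout effect in Wnt3a medium and 563 for the interaction. The interaction count was 1021 and ran from 242 to 1663 with an array left out. No fit with only the arrays compared applies to the interaction, which uses all 4 groups. The same replicate numbers did not pair the arrays: 3 of 18 same-numbered pairs had deviations correlated over 0.1 (-0.25 to 0.24). With the replicate number as a block 2 members were called for the knockout effect in control medium, where Eomes 1426001_at gained a call (0.37, limma adjusted p = 0.0359), and 1 in each other pairwise comparison; 1 of 12 arrays correlated best with its own number. The cause of these changes was not tested. Signals near the floor limit what can be said of Evx1 and Fgf8, and those below it of Gsc, Tbx6 and Lhx1.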
